A study of Homo sapiens with 20 samples.

Results

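The exons described here are internal exons of over 30 and under 300 bases that follow an intron shorter than 1000 bases and precede an intron longer than 5000 bases in the direction of transcription. They were selected from the skipped exon events of 3 junction tables by these lengths and by depth. The depth limit was 10 or more junction reads per library on average. No measured inclusion level entered this rule, but the listing of the events may itself depend on the levels. Mean levels of the control and depleted groups were equal at 0 of 492, 1 of 988 and 1 of 164 members in the siFUBP1, U3 and input tables. Yet many members were at 1.00 or 0 in every control library. Such members could differ in 1 direction only, which enters the counts of lower and higher members below. Together the tables held 1082 such events at 948 different exons of 823 genes, out of 38587 listed events and of 32555 events of the same exon sizes with enough reads. Of these events, 492 were in the siFUBP1 table, 988 in the table for U3 and 164 in the input table, and 135 were present in all 3 tables. A further 202, 149 and 97 events with these intron lengths fell below the read minimum and were not analysed.

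All libraries came from HepG2, a human hepatocyte-derived cancer cell line, after transient transfection. In the first comparison, cells received siFUBP1, an siRNA against the RNA-binding protein FUBP1, or the control siRNA siCtrl2, and were harvested after 48 h (n = 3 each). In the second, cells received an antisense oligonucleotide (ASO) against the U3 small nucleolar RNA or a GFP ASO as control, and were harvested after 72 h (n = 3 each). In the third, cells received siFBL, against the 2′-O-methyltransferase fibrillarin, or siCtrl for 48 h, and the libraries were the input RNA taken before FUBP1 immunoprecipitation (n = 2 each). The libraries are numbered here by their place in the tables, which does not carry the replicate number. The study's methods call the replicates biological and do not say more about how they were separated. The immunoprecipitated libraries were not analysed here.

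In splicing, the spliceosome pairs the ends of an exon or of an intron before it cuts. Where introns are short, the pair is thought to be formed across the intron, and where introns are long, across the exon, so that an exon between a short and a long intron lies at the border of both modes. FUBP1 binds U-rich single strands and acts with the factors that recognise the 3′ splice site. Fibrillarin is the enzyme of the box C/D ribonucleoproteins, which place 2′-O-methyl groups on RNA under the guidance of small nucleolar RNAs, and U3 is a box C/D RNA that serves the processing of ribosomal RNA.

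Some of the exons named below are printed first, 5′ to 3′, with the exon in capitals. The flanks, in lower case, are 25 bases of the upstream and 10 bases of the downstream intron. ZFAS1, at chr20:49280903-49280964 on the plus strand of hg38, is the only one of them whose change passed the test, in the U3 comparison. CHKA also passed there, and its splice sites are given further below. C1orf43 (chr1:154219836-154219937, minus) is shown because its libraries separated in both the U3 and the input tables. TNRC6A (chr16:24730253-24730300, plus), NSUN2 (chr5:6631873-6631977, minus), CAMK2D (chr4:113547644-113547716, minus) and DEK (chr6:18255731-18255851, minus) are coding exons whose groups did not overlap in 1 comparison, and RBP4 (chr10:93600393-93600499, minus) is the member with the most reads and was included in nearly every read.
ZFAS1: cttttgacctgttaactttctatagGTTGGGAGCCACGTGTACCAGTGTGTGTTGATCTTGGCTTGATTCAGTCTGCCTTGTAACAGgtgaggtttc
C1orf43: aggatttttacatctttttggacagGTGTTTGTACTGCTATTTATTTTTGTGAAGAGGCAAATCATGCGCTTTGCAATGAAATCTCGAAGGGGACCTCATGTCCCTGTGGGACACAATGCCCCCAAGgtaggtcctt
TNRC6A: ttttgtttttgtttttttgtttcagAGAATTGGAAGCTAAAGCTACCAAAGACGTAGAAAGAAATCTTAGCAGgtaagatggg
NSUN2: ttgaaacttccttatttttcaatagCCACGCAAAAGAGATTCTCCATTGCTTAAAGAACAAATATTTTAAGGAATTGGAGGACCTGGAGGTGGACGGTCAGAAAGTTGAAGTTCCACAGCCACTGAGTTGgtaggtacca
CAMK2D: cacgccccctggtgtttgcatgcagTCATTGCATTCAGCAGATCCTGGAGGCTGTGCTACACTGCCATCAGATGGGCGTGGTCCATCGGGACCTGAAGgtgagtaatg
DEK: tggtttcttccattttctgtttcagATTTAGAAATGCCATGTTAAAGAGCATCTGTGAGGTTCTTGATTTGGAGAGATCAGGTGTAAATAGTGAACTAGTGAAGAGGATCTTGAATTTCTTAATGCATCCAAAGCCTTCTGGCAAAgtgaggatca
RBP4: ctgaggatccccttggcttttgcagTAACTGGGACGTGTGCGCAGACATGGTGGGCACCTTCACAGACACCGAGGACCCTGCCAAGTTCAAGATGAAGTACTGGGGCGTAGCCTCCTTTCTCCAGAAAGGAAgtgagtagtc

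The 5′ splice sites of some exons at the ends of the range of levels are printed as examples. The last 3 exon bases are in capitals and the first 6 intron bases in lower case. Each has a log2 odds score against annotated human sites (higher is closer to the common site). The exons of SPTLC1 (chr9:92079434-92079566, minus, score 0.10), SEPTIN2 (chr2:241316422-241316555, plus, score 0.34) and SGCE (chr7:94597930-94598004, minus, score 0.56) were included at a level of at most 0.0668 in each control library analysed. Those of RBP4 (score 8.08), A2M (chr12:9089200-9089251, minus, score 11.50) and NACA (chr12:56724452-56724523, minus, score 10.32) were included in nearly all reads. Other exons at low levels had higher scores. Those of FKBP1B (chr2:24054473-24054540, plus, score 9.44), UBE2V1 (score 8.92), GPT2 (score 7.15) and CDK5RAP2 (score 4.67) did not exceed 0.0444 in any control library. The site of SEPTIN2 starts with gc in place of the common gt.
SPTLC1: ATGgttgtt
SEPTIN2: GAGgcacgg
SGCE: CAGgttcaa
RBP4: GAAgtgagt
A2M: CAGgtaaga
NACA: CAGgtaggt

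Across the series, a library held 2693397 to 4474350 junction reads in the siFUBP1 table, 11249641 to 13321799 in the U3 table and 910779 to 1142189 in the input table, of which the selected exons took 0.950% to 1.98%. The median member had 44.2, 83.2 and 28.2 reads per library, so the input table gave the least precise levels. The only listed FUBP1 event took 50.5 ± 5.44 RPM (reads per 1000000 junction reads) in siCtrl2, and this was 7.52 ± 3.09 after the knockdown (SD, n = 3). The 3 FUBP1 events of the U3 comparison took 59.9 ± 3.68 RPM in GFP ASO and 41.5 ± 2.53 in U3 ASO. FBL had no listed event, so its depletion was not checked here. Of 16 hepatocyte markers, 12 to 15 had events in a table, whereas of 11 markers of blood, endothelial and fibroblast cells only PECAM1 had one, at up to 0.834 RPM. Events of the hepatocyte markers took 136468 to 138254 RPM in GFP ASO and 94526 to 96702 in U3 ASO, and the part of this difference in the results below was not tested.

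The selected exons were included less often in control cells than the exons of any other combination of intron lengths. Their mean inclusion level, the length-scaled share of junction reads that join the exon, was 0.707, 0.707 and 0.703 in the siCtrl2 libraries, 0.744, 0.740 and 0.746 in the GFP ASO libraries, and 0.625 in both siCtrl input libraries. All other exons of the same sizes averaged 0.835 ± 0.000984, 0.857 ± 0.000667 and 0.782 ± 0.00317 in the same groups (SD over libraries). Introns were also grouped as short (under 1000 bases), middle or long (over 5000 bases), and among the resulting 9 classes the selected exons ranked lowest in every one of the 16 libraries, depleted ones included.

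**Figure D1:**
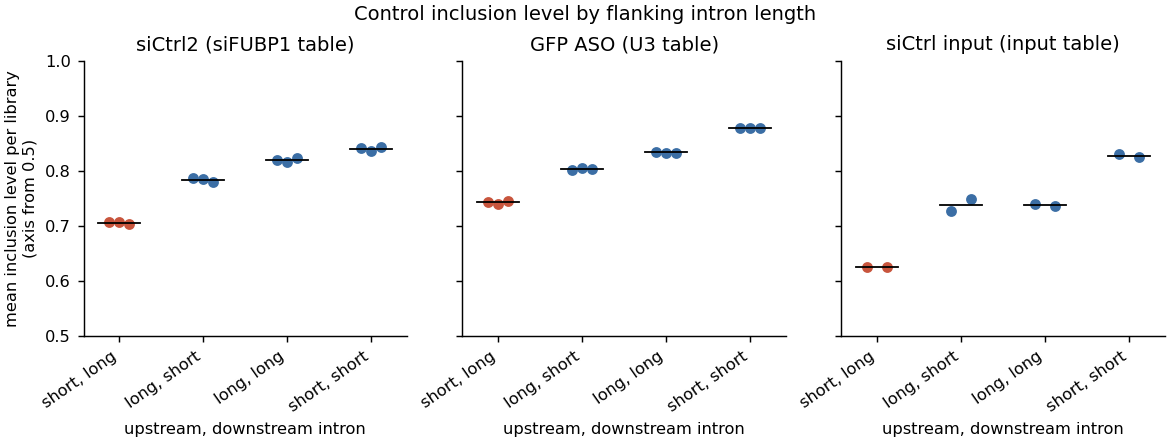
Mean inclusion level of each control library (points; bars are group means) for exons grouped by the length of the upstream and downstream intron, short being under 1000 and long over 5000 bases, with the vertical axis starting at 0.5. The exons after a short and before a long intron lie between 0.625 and 0.746, below the other 3 classes of the same library in all 8 control libraries.

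The difference from all other exons was -0.130 on average over the 8 control libraries and ranged from -0.159 to -0.111. It was negative in 8 of 8 libraries (two-sided exact sign-flip permutation test over libraries, p = 0.00781, the smallest p that 8 libraries allow). Exons in the mirror arrangement, after a long and before a short intron, were the nearest of the 3 extreme classes, and the selected exons lay 0.0798 below them (range of the differences -0.123 to -0.0570, exact permutation p = 0.00781). The difference was -0.105 from exons between long introns and -0.152 from exons between short introns, each in 8 of 8 libraries (exact permutation p = 0.00781 for both). These p-values cover the spread between libraries and not the choice of exons, and the tables share many of the exons.

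The low mean came from more exons at the bottom and in the middle of the range. In GFP ASO, 12.6% of the 948 members with reads in every library had a level under 0.1 and 59.8% had one over 0.9, compared with 7.16% and 76.2% of all other exons. In siCtrl2, the shares of the 472 members were 16.7% and 53.8%, compared with 8.17% and 72.0%, and in siCtrl input those of the 156 members were 17.3% and 42.3%, compared with 9.80% and 60.5%. The median member was still mostly included, at 0.932, 0.965 and 0.819. Members joined in every read of every control library numbered 114, 275 and 37 in the 3 tables, and members skipped in every read numbered 17, 31 and 12. The former were 24.2%, 29.0% and 23.7% of members, compared with 27.6%, 36.7% and 30.6% of all other exons. The latter were 3.60%, 3.27% and 7.69%, compared with 1.53%, 1.70% and 3.01%.

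**Figure D2:**
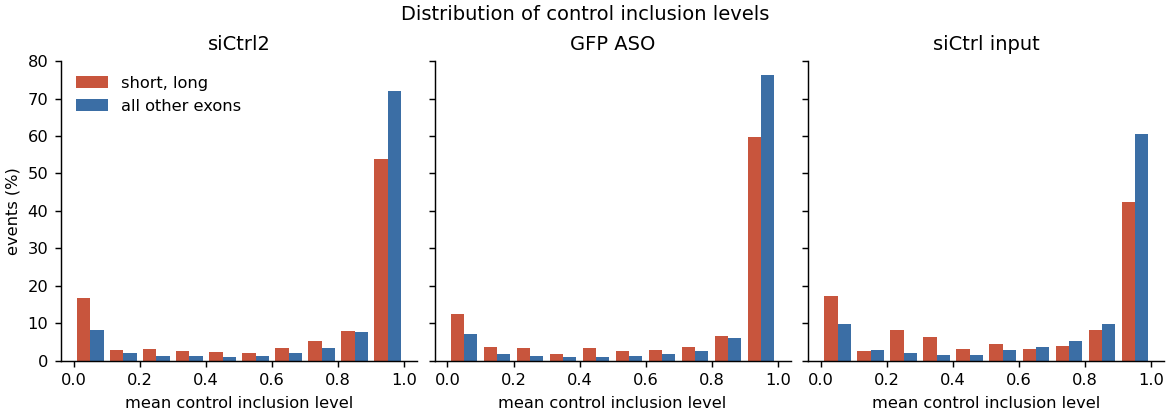
Share of events (percent, vertical axis) by mean control inclusion level in steps of 0.1 (horizontal axis) for exons after a short and before a long intron and for all other exons of the same sizes. In GFP ASO the lowest step holds 12.6% of the former and 7.16% of the latter, and the highest step 59.8% and 76.2%.

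Skipping reads gave the same picture without any scaling. In siCtrl2, 17.9% ± 0.475 of the junction reads at the selected exons were skipping reads, compared with 6.29% ± 0.0310 at all other exons (SD, n = 3). The shares were 12.7% ± 0.378 and 4.74% ± 0.0502 in GFP ASO (n = 3), and 28.3% ± 1.78 and 6.68% ± 0.00202 in siCtrl input (n = 2).

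Much of the difference in level went with where the exon lay in the annotation. By GENCODE release 44, 580 of the 948 exons were wholly coding in the canonical protein-coding transcript of a gene, 37 were partly coding, 47 lay in its untranslated regions, and 284 were in no canonical protein-coding transcript. The last group made up 30.0% of the selected exons, and only 70.0% of them were in a canonical transcript, compared with 84.4% of exons between short introns, 83.4% between long introns, 78.0% after long and before short introns, and 83.4% of all 27650 exons of these sizes. Transcripts that GENCODE marks for nonsense-mediated decay, without a protein-coding one, were the source of 4.01% of the selected exons and of 2.55% of all, and transcripts that are neither were the only source of 4.64% and 2.56%.

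Within the coding exons, the selected ones averaged 0.905 ± 0.000696 in siCtrl2 (266 events), 0.916 ± 0.00406 in GFP ASO (542 events) and 0.840 ± 0.0153 in siCtrl input (77 events). The other coding exons averaged 0.929, 0.948 and 0.886. The difference over the 8 control libraries was -0.0326 (range -0.0548 to -0.0226, lower in 8 of 8, exact permutation p = 0.00781), against -0.130 for exons of all places. Against coding exons after a long and before a short intron it was -0.0141, lower in 7 of 8 libraries (exact permutation p = 0.0234). Exons outside the canonical transcripts averaged 0.334, 0.422 and 0.334 in the selected class and 0.372, 0.441 and 0.375 in the others. Here the class was not the lowest, since exons of this kind between long introns lay below it in 8 of 8 libraries (difference 0.0450, exact permutation p = 0.00781).

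**Figure D3:**
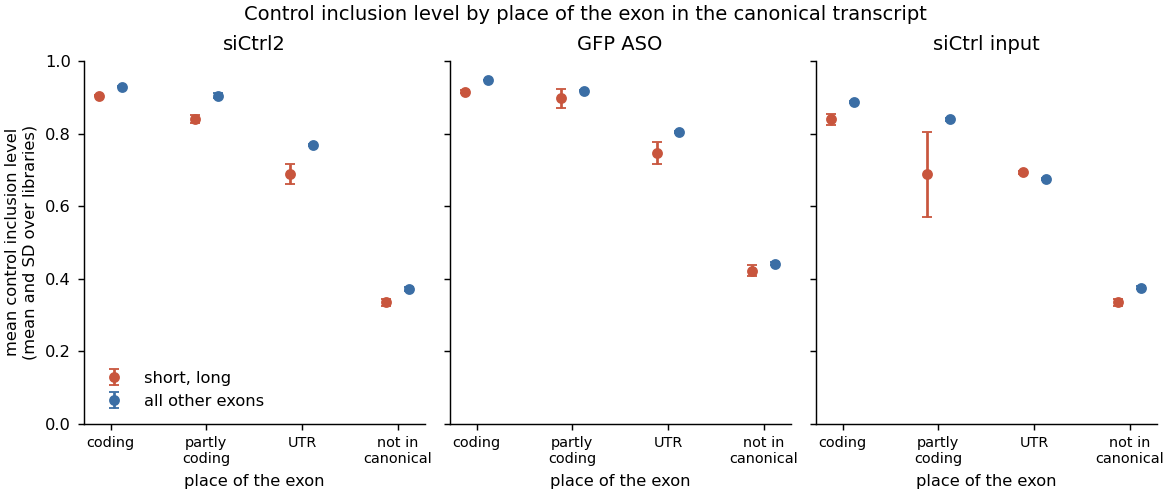
Mean control inclusion level (points, with SD over libraries as bars, n = 3, 3 and 2) by the place of the exon in the canonical protein-coding transcript, for exons after a short and before a long intron and for all other exons. Coding exons of the selected class average 0.905, 0.916 and 0.840, and those in no canonical transcript 0.334, 0.422 and 0.334.

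Within the class, levels also differed by the position in the transcript. Of the 664 exons in a canonical transcript, 130 were its exon 2 (19.6%), compared with 14.4% over all exons and 8.69% of those between short introns. The share was 19.2% for exons after long and before short introns and 28.5% between long introns, so it was not particular to the class. Second exons of the class averaged 0.803 ± 0.00953 in siCtrl2, 0.841 ± 0.0138 in GFP ASO and 0.781 ± 0.00271 in siCtrl input, whereas its later exons averaged 0.908 ± 0.00129, 0.917 ± 0.00512 and 0.834 ± 0.0112. Among all other exons, second and later exons were closer together, at 0.914 and 0.925 in siCtrl2 and 0.927 and 0.945 in GFP ASO.

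In sequence, the selected exons were in between the short-intron and the long-intron classes. Their median length was 111 bases and their median GC content 48.8%, compared with 57.1% for exons between short introns and 45.6% between long introns. The 100 intron bases before and after them had a median GC content of 41.0% on both sides, compared with 58.0% on both sides between short introns and 34% and 36% between long introns. The median score of the 5′ splice site was 8.12, above the 7.99 of all exons, and that of the 3′ splice site 8.66, below the 9.18 of all exons and the 10.48 of exons between long introns. Exons between short introns had lower medians at both sites, 7.56 and 7.80. Those after long and before short introns had 7.75 and 9.39. The share of exons with a length that is a multiple of 3 was 41.2%, compared with 41.5% of all. The letters TTTTT on the sense strand occurred in the last 100 bases of the upstream intron of 41.2% and in the first 100 bases of the downstream intron of 32.2%, compared with 41.3% and 30.1% of all exons, so the class did not stand out in this count.

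Levels by splice site score were compared among the members. In GFP ASO, the members in the lowest tercile of 5′ splice site scores (up to 6.92) averaged 0.677 ± 0.00517, those in the middle tercile 0.715 ± 0.0132, and those in the highest tercile (from 8.97) 0.838 ± 0.00583 (SD, n = 3). In siCtrl2 the averages were 0.633, 0.677 and 0.811, whereas in siCtrl input the middle tercile was the lowest (0.596, 0.574 and 0.710). For the 3′ splice site, the lowest tercile averaged 0.696 and the highest 0.770 in GFP ASO, and 0.652 and 0.740 in siCtrl2. In siCtrl input the 3′ terciles had no such order, at 0.642 ± 0.0409, 0.605 and 0.627 ± 0.0416 (SD, n = 2). Across the 948 members of the U3 table, Spearman's rho with the control level was 0.14 for the 5′ score, 0.12 for the 3′ score, -0.10 for exon GC content, -0.03 for the upstream and -0.06 for the downstream intron length, and 0.22 for the number of reads. The points share the libraries, and exons of 1 gene share its transcripts, so these are descriptions. Within the class the intron lengths had little relation to the level.

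The introns had a median length of 506 bases upstream and 8398 bases downstream. The shortest upstream intron had 73 bases (NR5A1, a nuclear receptor of steroidogenic cells, level 0.959 ± 0.0490) and the longest downstream intron 148325 bases (CADPS2, a vesicle priming factor, skipped in every read of GFP ASO at 80.8 reads per library). At the limits of the rule, RBFA with 998 bases upstream was just inside, at a control level of 1.00. DERL2 with 5006 bases downstream was just inside and ITGA1 with 4998 just outside, at 0.981 ± 0.0334 and 1.00. Most genes (719) contributed 1 exon and 104 contributed several, with PCM1, a scaffold of centriolar satellites, contributing the most (4). As 104 exons appeared in more than 1 event, with other flanking exons, events are not independent.

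The most read members were nearly always included. In the U3 table these were exon 4 of RBP4 (11202 reads per library) and exon 22 of A2M (10574 reads), both of plasma proteins made by hepatocytes, exon 7 of CANX, a chaperone of the endoplasmic reticulum (7160 reads), and exon 2 of NACA, a ribosome-associated chaperone subunit (4501 reads), all with levels of 0.996 to 1.00 in each of the 6 libraries. The fifth, an exon of the readthrough transcript NEDD8-MDP1 (2710 reads), was at 0.00848 to 0.0336, and its reads cannot be told apart from those of the genes it spans. In the siFUBP1 table NACA, EIF4B, P4HB and FKBP1A lay between 0.991 and 1.00 in every library, while exon 4 of ETV4, an ETS transcription factor, lay between 0.844 and 0.946. In the input table the leading member was exon 12 of F2, which encodes prothrombin (759 reads), at 0.952 and 0.859 in siCtrl input and 0.957 and 0.950 in siFBL input. The second, an exon of GPT2 (479 reads), the mitochondrial alanine aminotransferase, was at 0.000957 to 0.0117. Exon 2 of SERPINA5, a plasma protease inhibitor, was at 0.677 and 0.611 in siCtrl input and 0.717 and 0.547 in siFBL input.

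Among the 135 members present in all 3 tables, control levels were ordered much alike, with Spearman's rho of 0.95 between siCtrl2 and GFP ASO, 0.87 between siCtrl2 and siCtrl input, and 0.88 between GFP ASO and siCtrl input, across exons and not across independent samples. Their median levels were 0.629, 0.574 and 0.554. The 6 genes with the lowest levels were SEPTIN2 (a septin of the cytoskeleton), FKBP1B (a binding partner of calcium release channels), GPT2, UBE2V1 (a ubiquitin-conjugating enzyme variant), CDK5RAP2 (a centrosomal protein) and SGCE (epsilon-sarcoglycan). Their levels did not exceed 0.0444 in any control library, and none of the 6 exons was part of a canonical protein-coding transcript.

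Of the same 135, 34 differed by more than 0.2 between control groups. The widest range with at least 20 reads per library in each table was at an exon of BPTF, a subunit of a chromatin remodeller, at 0.684, 0.566 and 0.600 in siCtrl2, 0.230, 0.337 and 0.20 in GFP ASO, and 0.953 and 1.00 in siCtrl input. Exon 2 of SMC6, a subunit of a chromosome maintenance complex, was at 0.321, 0.319 and 0.730 in siCtrl2, 0.277, 0.338 and 0.266 in GFP ASO and 0 in both siCtrl input libraries. The levels of 0 rested on 62 and 9 skipping reads, as the limit of 20 reads applies to the mean over the libraries of a table. The BPTF levels of the 3 groups did not overlap, whereas those of SMC6 overlapped between siCtrl2 and GFP ASO. NIPA2, ARMC10, FCGRT and P4HA2 followed. ARMC10 also varied within a group, with 0 and 0.862 in the siCtrl input libraries at 20.2 reads per library. Cells, treatment and library differ together between the tables, so the source of these ranges cannot be told apart.

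FUBP1 depletion was compared with siCtrl2 to ask how exons depend on this binding protein. None of the 492 members passed an adjusted p of 0.1 (quasi-binomial test with limma-moderated dispersion, Benjamini-Hochberg over the 16213 tested events), against 32 events or 0.197% of all tested. At an unadjusted p under 0.05 there were 23 members (12 lower, 11 higher), or 4.67% against 4.59% of all tested, and limma on log2 odds called 0 as well, with 29 members at an unadjusted p under 0.05 (5.89% against 6.62% of all tested). Groups did not overlap at 24 members, or 4.88% against 5.05%. The level was lower in siFUBP1 at 256 members and higher at 236, with a median difference of -0.00137 beside -0.00139 over all tested events. These shares of the selected exons were close to or below those of the whole table. A difference of at least 0.1 was more frequent, at 22.8% of members and 19.8% of all tested events. The median depth was 44.2 reads per library in the class and 61.2 in the other exons.

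The member closest to the threshold was exon 2 of NONO, which encodes a paraspeckle and splicing-associated protein (chrX:71284397-71284453, plus, in the untranslated region of the canonical transcript, 397 reads per library). Its level was 0.867, 0.959 and 0.855 in siCtrl2 and 0.779, 0.661 and 0.825 in siFUBP1 (0.894 ± 0.0571 and 0.755 ± 0.0848, adjusted p = 0.134 by the quasi-binomial test). All siFUBP1 libraries lay below the siCtrl2 libraries. Without siCtrl2 library 3 the adjusted p was 0.0892, and without siFUBP1 library 2 it was 0.931. In the U3 table this exon was at 0.911, 0.891 and 0.836 in GFP ASO and at 0.847, 0.812 and 0.824 in U3 ASO, with overlap (1050 reads per library). In the input table it was at 0.729 and 0.584 in siCtrl and at 0.832 and 0.829 in siFBL, higher in both depleted libraries.

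At an unadjusted p under 0.05 and at least 20 reads per library, 14 genes had members with groups that did not overlap, NONO among them. The share of all tested events that met these limits together is not given here. By lack of overlap alone, the share of members (4.88%) was below that of all tested events (5.05%). None of the 14 genes passed the test. The 11 with the smallest p after NONO, from which the examples below come, had adjusted p from 0.515 to 0.812 (quasi-binomial test). Lower levels in siFUBP1 were measured at SMC6 (0.457 to 0.144), PCM1 (0.430 to 0.291) and CCDC186 (0.364 to 0.0560). Exon 2 of STK25, a Ste20-family kinase, was at 0.776, 0.924 and 0.908 in siCtrl2 and at 0.621, 0.755 and 0.669 in siFUBP1. The coding exon 3 of NSUN2, an RNA cytosine methyltransferase, was at 0.949, 0.864 and 1.00 and then at 0.754, 0.741 and 0.633. An exon of CHFR, a mitotic checkpoint ubiquitin ligase, was at 0.964, 1.00 and 0.818 and then at 0.439, 0.726 and 0.591. In each of these 3 genes the highest siFUBP1 library lay below the lowest control, which the rule that named them required.

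Higher levels were measured at exon 2 of SGPL1, the sphingosine-1-phosphate lyase, with 0.755, 0.610 and 0.863 in siCtrl2 and 1.00, 0.920 and 0.880 in siFUBP1. The ZFAS1 exon printed above was at 0.287, 0.240 and 0.311 and at 0.545, 0.316 and 0.340, where 1 library stood apart from the other two. Exons of SPTLC1, a subunit of the enzyme that starts sphingolipid synthesis, and of UBE2V1 had no inclusion read in siCtrl2 and levels of 0.0245 to 0.0474 and of 0.00359 to 0.0320 in siFUBP1. Control libraries of the other comparisons also had such low levels, up to 0.0668 at SPTLC1 in GFP ASO and 0.0294 at UBE2V1 in siCtrl input.

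The mean level of the class was 0.707, 0.707 and 0.703 in siCtrl2 and 0.707, 0.704 and 0.698 in siFUBP1, and these ranges overlapped. The change of -0.00273 was -0.00947 without overlap with at least 20 reads per library, and 0.00494 for introns under 500 and over 10000 bases. Exons between short introns had a mean level 0.0193 higher in siFUBP1 and exons between long introns one that differed by -0.0209, both without overlap between the groups. The change of the selected exons, with 1 intron of each kind, was -0.00273, between these values and with overlap. Relative to exons between short introns their level moved by -0.0220 from siCtrl2 to siFUBP1, and relative to exons between long introns by 0.0182, without overlap in either case (exact permutation p = 0.100 for both, the smallest that 3 against 3 libraries allow). Relative to exons after long and before short introns it moved by 0.00199 (exact permutation p = 1.00), and relative to all other exons by 0.00193 (exact permutation p = 0.500). The last value changed sign when at least 20 reads per library were required (-0.00454, without overlap) and with 1 event per exon (-0.00205).

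**Figure D4:**
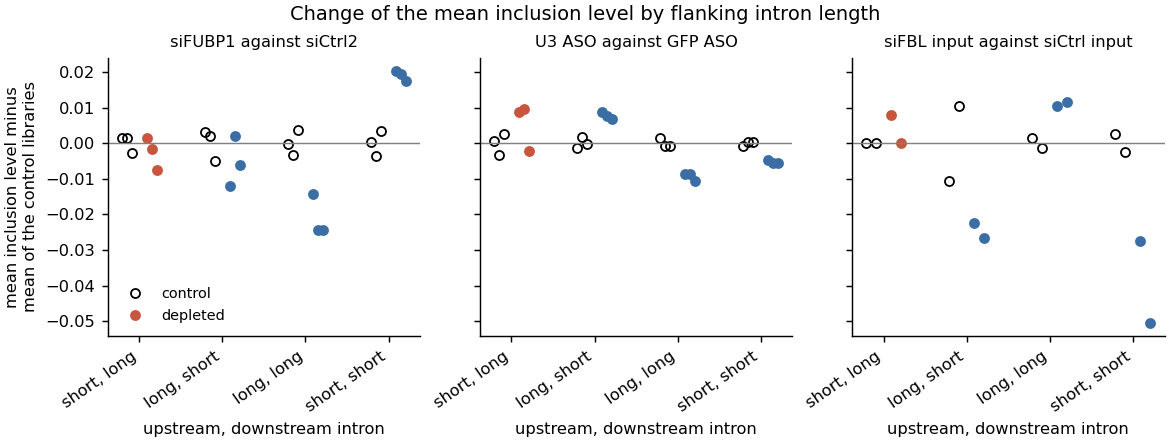
Mean inclusion level of each library minus the mean of the control libraries of its table (vertical axis) for 4 combinations of upstream and downstream intron length; open circles are control libraries and filled circles are depleted libraries (red for exons after a short and before a long intron, blue for the others). In the siFUBP1 comparison the filled circles differ from the controls by 0.0193 on average for exons between short introns, by -0.0209 between long introns and by -0.00273 for the selected exons.

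U3 depletion was compared with the GFP ASO to ask how exons depend on a box C/D RNA. Of the 988 members, 2 passed the test, both higher in U3 ASO, which is 0.202% of the members beside 0.226% (68) of the 30110 tested events. At an unadjusted p under 0.05 there were 51 members (18 lower, 33 higher), or 5.16% against 4.13% of all tested. Limma on log2 odds called 0 members and had 74 at an unadjusted p under 0.05 (7.49% against 6.51%). Groups did not overlap at 81 members (42 lower, 39 higher), or 8.20% against 6.03%. The level was lower in U3 ASO at 519 members and higher at 468, or 52.5% lower against 59.2% of all tested events, and the median difference was -0.00148 beside -0.00355. A difference of at least 0.1 was measured at 21.4% of members and 14.2% of all tested events, with medians of 83.2 reads per library in the class and 129 in the other exons.

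ZFAS1 is a long noncoding RNA gene whose introns carry box C/D small nucleolar RNAs. The level of its exon rose from 0.566, 0.445 and 0.421 in GFP ASO to 0.603, 0.660 and 0.577 in U3 ASO, at 1077 reads per library. The groups did not overlap, and the change of 0.136 (0.477 ± 0.0776 to 0.613 ± 0.0426, SD, n = 3) had an adjusted p of 0.0596 by the quasi-binomial test. In siCtrl2 the same exon was at 0.280 ± 0.0361, and in siCtrl input at 0.333 and 0.462. It was kept without GFP ASO library 1 (adjusted p = 0.00608) and U3 ASO library 3 (0.0790). The call was lost without GFP ASO library 2 (adjusted p = 0.682) or 3 (0.739) and without U3 ASO library 1 (0.122) or 2 (0.711), as well as with limma on log2 odds (0.878).

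CHKA encodes choline kinase alpha, which starts the synthesis of phosphatidylcholine. Its exon (chr11:68061600-68061830, minus, 231 bases) does not match an exon of GENCODE, although it overlaps others, and its splice sites are gggttctctgtctccccaagTAC (3′ site, exon bases in capitals) and ACAgtaagt (5′ site). The level rose from 0.0747, 0.0583 and 0.0576 in GFP ASO to 0.134, 0.174 and 0.171 in U3 ASO, at 438 reads per library. The groups were well apart, and the change of 0.0962 had an adjusted p of 0.0959 by the quasi-binomial test. In the siFUBP1 table the level stayed between 0 and 0.0196 in all 6 libraries. The call was kept only without U3 ASO library 1 among the libraries left out in turn (adjusted p 0.0988 to 0.676) and was lost with limma on log2 odds (0.860). With the event's own dispersion where higher, the adjusted p was 0.128 for CHKA and 0.852 for ZFAS1.

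The next members by p, which did not pass the test, included exon 6 of DEK, which encodes a chromatin protein. It was at 0.997, 0.998 and 1.00 in GFP ASO and at 0.977, 0.960 and 0.978 in U3 ASO (1722 reads per library, adjusted p = 0.150 by the quasi-binomial test), so that skipping was rare in both groups but higher in each U3 ASO library. Exon 2 of FBXO22, a substrate receptor of a ubiquitin ligase, was at 0.809, 0.784 and 0.750 and then at 0.850, 0.883 and 0.865 (adjusted p = 0.408). An exon of LYRM1 was at 0.671, 0.747 and 0.811 and then at 0.955, 0.935 and 0.868.

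The CAMK2D exon, of a calcium-dependent kinase, was at 0.0188, 0.0118 and 0.00709 in GFP ASO and at 0.380, 0.251 and 0.0610 in U3 ASO, at 84.3 reads per library (adjusted p = 0.263). The U3 ASO libraries differed from one another by more than the lowest differed from the controls. Exons of GPT2 and CDK5RAP2 were at most at 0.00568 and 0.00526 in GFP ASO and at 0.0132 to 0.0356 and 0.00890 to 0.0619 in U3 ASO. ARMC10, FKBP1B (another exon than the one above) and CAP1, an actin regulator, had means of 0.0943, 0.125 and 0.0441 in GFP ASO and of 0.362, 0.254 and 0.303 in U3 ASO. Lower means in U3 ASO were measured at ATG13, of the complex that starts autophagy (0.434 and 0.154), and at exon 2 of VPS51, of an endosomal tethering complex (1.00 and 0.951). None of these passed the test, with adjusted p from 0.406 to 0.845 for the genes named after CAMK2D.

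The level belongs to an event, that is, to an exon between a given pair of neighbours. CAP1 had 5 member events on the same exon in the U3 table, and the other 4 overlapped between the groups, with changes from -0.316 to 0.116. At C1orf43 the exon was at 0.571, 0.633 and 0.517 in GFP ASO and at 0.741, 0.655 and 0.686 in U3 ASO for the event with most reads (678 per library, adjusted p = 0.702), and at 0.867, 0.843 and 0.822 and then 0.967, 0.968 and 0.938 for an event with another downstream exon (219 reads). Neither event overlapped between the groups, whereas the other 2 member events of this exon, at 0.877 to 1.00, did. These further events of CAP1 and C1orf43 were chosen after their values were seen.

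The mean level of the class was 0.744, 0.740 and 0.746 in GFP ASO and 0.752, 0.753 and 0.741 in U3 ASO. These ranges overlapped, because U3 ASO library 3 lay among the controls, and without it the change was 0.00908 with no overlap, beside 0.00515 with it. For introns under 500 and over 10000 bases the change was -0.00206. All other exons moved by -0.00364 without overlap. The difference between the class and all other exons moved by 0.00878, with overlap (exact permutation p = 0.20). It moved by 0.0104 relative to exons between short introns and by 0.0141 relative to exons between long introns, both without overlap (exact permutation p = 0.100 for each), and by -0.00193 relative to exons after long and before short introns (p = 0.600, exact permutation). Skipping reads made up 12.7% ± 0.378 of the reads at the selected exons in GFP ASO and 13.3% ± 0.267 after U3 depletion, without overlap, and the share at all other exons shifted by a like amount, from 4.74% to 5.33%. Without the 20 most read members the share of the class moved by -0.442 percentage points instead, with overlap, so the higher share rested on those members.

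**Figure D5:**
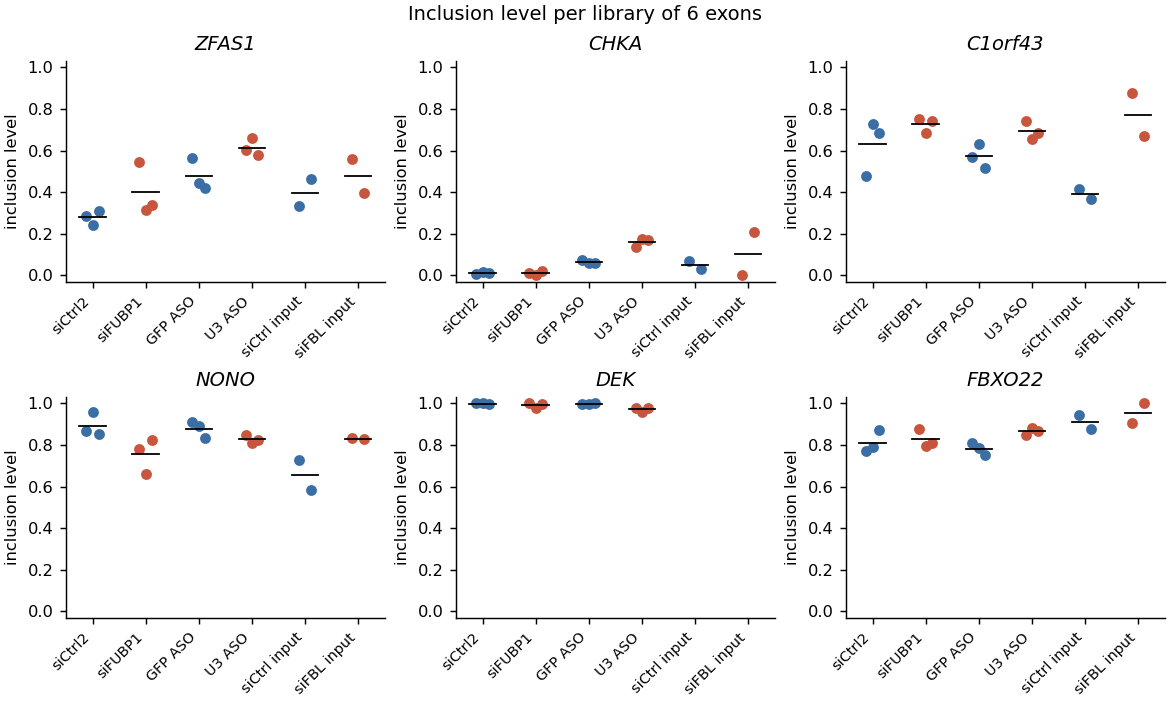
Inclusion level (vertical axis, 0 to 1) of 6 member exons in each library (points; bars are group means) of the 3 comparisons, blue for control and red for depleted groups; CHKA and ZFAS1 passed the test in the U3 comparison. The DEK exon had no analysed event in the input table and is not shown there. The C1orf43 exon lies higher in the depleted than in the control libraries of the U3 and input comparisons, without overlap.

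Fibrillarin depletion was compared with siCtrl in the input libraries to ask how exons depend on the methyltransferase. None of the 164 members passed the test, and none of the 5218 tested events (0%) did. At an unadjusted p under 0.05 there were 3 members (2 lower, 1 higher, or 1.83% against 2.26%), and limma on log2 odds called 0 members, with 11 at an unadjusted p under 0.05 (6.71% against 5.54%). Groups did not overlap at 28 members (14 lower, 14 higher), or 17.1% against 13.8%, with 2 libraries in each group. The level was lower in siFBL at 73 members and higher at 90, or 44.5% lower against 52.1% of all tested events. The median difference was 0.0128 beside -0.00326. A difference of at least 0.1 was measured at 50.6% of members and 39.7% of all tested events. The median depth was 28.2 reads per library in the class and 40.5 in the other exons.

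The C1orf43 exon 2 had the smallest p, at 0.415 and 0.368 in siCtrl input and 0.877 and 0.669 in siFBL input (170 reads per library, adjusted p = 0.874 by the quasi-binomial test). It was higher in both depleted libraries, as in the U3 comparison, whose control libraries are separate. A second member event of this exon in the input table, with another upstream exon and 38 reads per library, was at 1.00 in both siCtrl libraries and at 1.00 and 0.773 in siFBL. In the siFUBP1 table the groups of the former event overlapped, at 0.478, 0.727 and 0.682 and at 0.753, 0.683 and 0.742. Exon 2 of TNRC6A, a GW182 protein of microRNA silencing, was at 1.00 in both siCtrl input libraries and at 0.316 and 0.874 in siFBL input, the depleted libraries being far apart. Exon 2 of MZT2B, a subunit of the gamma-tubulin ring complex, was at 0.992 and 1.00 and at 0.948 and 0.870. All 3 are coding second exons of the canonical transcript.

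The mean level of the class was 0.625 in both siCtrl input libraries and 0.633 and 0.625 in siFBL input, and the ranges met. For introns under 500 and over 10000 bases its change was -0.0326, without overlap. Exons between short introns moved by -0.0391 and those between long introns by 0.0113, without overlap. The class moved by 0.0428 relative to the former and by -0.00760 relative to the latter, by 0.0282 relative to exons after long and before short introns, and by 0.0128 relative to all other exons, each without overlap (exact permutation p = 0.333 for each, the smallest that 2 against 2 libraries allow). The last value overlapped with at least 20 reads per library (0.0134) and was -0.0241, with overlap, for introns under 500 and over 10000 bases. The skipping share of the class was 28.3% ± 1.78 and 28.6% ± 0.0593, a difference smaller than the spread of the control libraries.

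The siFUBP1 and U3 tables share no library, and 407 members were tested in both. Of these, 5 had groups that did not overlap in either table (1.23%, beside 0.986% of the 12373 events tested in both), and 3 of the 5 moved the same way, beside 59 of 122 over all events. ZFAS1 and LYRM1 were higher in both, by 0.121 and 0.105 in siFUBP1 and by 0.136 and 0.176 in U3 ASO. SMC6 was lower in both, with differences of -0.312 and -0.109, with siCtrl2 library 3 at 0.730 standing apart from 0.321 and 0.319. CHFR and NDUFAF6, an assembly factor of respiratory complex I, were lower in siFUBP1 and higher in U3 ASO. NDUFAF6 falls outside the rule for named genes and was named after its values were seen.

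The host genes were also grouped into 8 lists by patterns in their symbols, which only approximate function. None of the lists had a member called in any of the 3 comparisons, as the called CHKA and ZFAS1 were in none of them. The patterns left out CHKA, a choline kinase, and placed CDK5RAP2, a centrosomal protein, with the kinases and phosphatases. The largest list was that of chromatin and transcription regulators, including ARID1B, BPTF and many zinc finger genes. In the U3 table it had 76 events at 59 genes, 38 lower and 38 higher, with 4 at an unadjusted p under 0.05 and a median difference of 3.8e-05 beside -0.00355 over all tested events. Genes of the ubiquitin pathway, with FBXO22 and UBE2V1, had 42 events there (25 lower, 17 higher, 5 at an unadjusted p under 0.05, median -0.00718). Kinases and phosphatases had 35 (19 lower, 16 higher, median -0.00295), and membrane traffic genes 30 (20 lower, 10 higher, median -0.00833).

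Adhesion and cytoskeleton genes had 21 member events in the U3 table (10 lower, 11 higher, median 0.00671), splicing regulators 16 (10 lower, 6 higher, median -0.00158), hepatocyte genes 5, and the box C/D and U3 processome list 2, NOL9 and UTP25. In the siFUBP1 table, chromatin and transcription regulators had 35 events (15 lower, 20 higher, median 0.00605), ubiquitin pathway genes 23 (12 lower, 11 higher, median -0.00598), kinases and phosphatases 20 (11 lower, 9 higher), and membrane traffic genes 14 (9 lower, 5 higher, median -0.0252 beside -0.00139 over all tested events). The 6 events of splicing regulators, at ACIN1, MBNL1, RBM34, RBM38 and TRA2A, were 4 lower and 2 higher, with a median control level of 0.109. Adhesion and cytoskeleton genes had 7 events (4 lower, 3 higher) and hepatocyte genes 4 (1 lower, 3 higher), and the box C/D list had none. In the input table the lists held 0 to 9 events each.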

How the data were processed

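Junction reads at skipped exon events were analysed for 16 of the 20 libraries (HepG2, hg38). Per the labels and the methods, the authors trimmed reads with cutadapt, aligned them with HISAT2 and counted junction reads with rMATS; versions and annotation are not given in the sources used here. The deposited tables list whole-number junction reads per event and library, with effective lengths, unscaled. Their 6 columns of inclusion levels and the authors' p-values, false discovery rates and level differences were not used, nor was the table of immunoprecipitation fold changes.

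Inclusion level was I/li / (I/li + S/ls), where I and S are inclusion and skipping reads and li and ls their effective lengths. Events with a mean of at least 10 reads per library were tested (quasi-binomial model, Pearson dispersion moderated with limma 3.58.1 in R 4.3.3 on the rank of information, prior from events with information of at least 5; Benjamini-Hochberg over each table; called at adjusted p under 0.1), after a check on simulated data. Means over exons were compared over libraries by exact two-sided permutation. Annotation was GENCODE release 44. Splice site scores are sums of log2 odds from 183924 5′ sites (3 exon and 6 intron bases) and 183884 3′ sites (20 intron and 3 exon bases) of canonical transcripts, so they describe likeness to those sites.

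Named exons were those called, then up to 12 per comparison with the smallest p under 0.05, no overlap and at least 20 reads (1 per gene), the 5 with most reads, and, across tables, the 6 with the lowest and the 6 with the most variable control level. The members, gene lists and rules were chosen with earlier results of these data known. Alternatives were other dispersion trends, limma on log2 odds (0.5 added), other read minimums, 1 event per exon, introns under 500 and over 10000 bases, and leaving out each library. Molecular identifiers and the removal of duplicates are not given for these libraries in the sources used here. The values of 2 exons are not reported here.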

Additional observations from a re-analysis of the deposited data

How the results depend on the processing

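No paired analysis was possible because the places of the libraries in the tables carry no replicate number. Of 129 alternatives to the 16 results that answer a comparison, 93 kept direction and side of the threshold, and of 370 alternatives for 29 named exons, 353 did, with no reversal. With at least 20 reads per library, the mean level change of the class in siFUBP1 was -0.00947 without overlap, its change against other exons reversed to -0.00454, and that in siFBL (0.0134) overlapped. With 1 event per exon, the change against other exons in siFUBP1 was -0.00205, the U3 skipping share change (0.516) overlapped, and the siFBL mean level change (0.00682) did not. With introns under 500 and over 10000 bases, the mean level change reversed in all 3 comparisons (0.00494 in siFUBP1, -0.00206 in U3 ASO and -0.0326 in siFBL), the skipping share changed by -1.92 in siFUBP1 and -0.480 in U3 ASO, the siFBL change against other exons was -0.0241, and 0 members were called in U3 ASO. Without the 20 most read members the skipping share changed by 0.108 in siFUBP1, -0.442 in U3 ASO and 1.68 in siFBL. Without length scaling the siFBL mean level change was 0.00586.

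The 2 calls in U3 ASO became 0 with limma on log2 odds, with or without a variance trend, 0 with the event's own dispersion where higher (an alternative chosen after seeing the data), and 1 with no read filter. They became 3 with 1 event per exon and 3 with the dispersion trend on the information of all events. Over all tested events, limma on log2 odds called 8 without and 2 with a variance trend in siFUBP1, beside 32, and 0 with either in U3 ASO, beside 68, where the own dispersion gave 41. Leaving out each library in turn gave 0 to 2 calls in U3 ASO and 0 to 1 in siFUBP1. ZFAS1 and CHKA were not called together in any of these fits. Where 2 members were called, without GFP ASO library 1 or U3 ASO library 1, another member was thus among them. Mean level changes with a library left out were -0.00514 to -0.00128 in siFUBP1, 0.00233 to 0.00908 in U3 ASO and 0.00370 to 0.0128 in siFBL. Skipping share changes were -0.363 to 0.111 (reversed without siCtrl2 library 2), 0.364 to 0.725 and -0.959 (reversed, without siCtrl input library 1) to 1.55, and changes against other exons 0.000199 to 0.00340, 0.00627 to 0.0125 and 0.0106 to 0.0251. The causes were not tested. Depth limited the input table most, at a median of 28.2 reads per member and library.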
